A study of Mus musculus with 8 samples.

Results

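Solute carriers are a large superfamily of membrane transporters, named Slc with a family number. The genes described here are those whose symbol starts with Slc and a number and that averaged 1 FPKM or more across the 6 crypt libraries (FPKM are fragments scaled to gene length and library size, as deposited). Of 341 such genes with values, 227 reached that mean, and 8 of these, which belong to bile acid, iron, manganese, cystine and chloride handling, were set aside by the rule, which left 219 members among 16958 genes with values. The mean level that chose the members is no finding, and 10 members, under 1 FPKM in WT, were chosen only because of higher values in knockouts. The other 114 genes were under the threshold, with Slc2a10 at a mean of 0.99 FPKM just outside and Slc18a2 at 1.15 just inside. Members were grouped by substrate into 18 for sugars, 34 for amino acids and peptides, 46 for ions, 10 for nucleosides, 10 for vitamins, 36 mitochondrial carriers of the Slc25 family, 9 for carboxylates, 21 of the Slc35 family of nucleotide sugar carriers, 32 for organic ions, lipids and other cargo, and 3 genes that are named after a carrier but are no transporter. RefSeq lists 218 members as protein coding and 1, Slc10a4l, counted among the 32, as a transcribed pseudogene.

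RNA of intestinal crypts, the pits of the gut lining that hold stem cells, was sequenced from C57BL/6 mice labelled as 8 weeks old, and the labels do not name the gut segment. The control library, WT, carried floxed Setdb1 alleles (setdb1fl/fl), and the 5 knockout libraries, VEMD2, VEMD3, VEMD4, VEMD6 and VEMD8, carried the label setdb1 iIEC-KO. Setdb1 encodes a histone H3 lysine methyltransferase, and its deletion was driven by Villin-CreERT2, which is active in gut epithelium and not in other cells of the gut wall. The mice and their control littermates received tamoxifen once, at 800 mg/kg by gavage, to activate the recombinase. The labels give no time of harvest per sample and do not spell out VEMD. Each group is 1 library, so no value has an error, no difference was tested, and higher or lower describes these libraries alone. Values of the 5 knockouts are always listed in the order VEMD2, VEMD3, VEMD4, VEMD6 and VEMD8, with the name taken as a label and not as a time.

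Absorption of food in the gut works through carriers on both faces of the epithelial cell. On the brush border, which faces the lumen, carriers couple uptake to the sodium gradient or the proton gradient, and on the basolateral face others pass the cargo on to the blood, while the sodium pump keeps the gradient up. Carriers of dietary sugars, amino acids and peptides are most active in mature enterocytes of the villus, whereas dividing cells of the crypt use another set of carriers that supply growth with glutamine, leucine and other substrates. Carriers of the Slc25 family sit in the inner membrane of mitochondria and exchange nucleotides, phosphate and metabolites, and those of the Slc35 family supply the Golgi apparatus with sugars for glycoproteins.

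Setdb1 itself had 9.42 FPKM in WT and 3.53 to 7.03 across the knockouts, a value for the whole gene that cannot show the loss of single exons. Depth is unknown because the table holds no counts. The log2 ratio of a knockout to WT was taken after 1 FPKM was added to both values, which understates differences of low genes, and a ratio of at least 1 or at most -1 is called 2-fold. All 5 ratios of a gene share its WT value. Across the 10862 tested genes this ratio had a median of 0.09, 0.12, 0.03, -0.23 and -0.06, and a rescaled ratio is one from which this median was subtracted. Markers of enterocytes other than carriers, 23 of 23 tested, summed to 16148 FPKM in WT and to 7137, 5402, 11991, 31931 and 15327 in the knockouts, and none of the 23 was at 0 in any library. Their median ratio was -1.04, -1.69, -0.53, 0.70 and -0.37. In VEMD6 8 were at least 2-fold higher and 2, Lct and Treh, lower, against 5.04% and 8.15% of all tested genes. VEMD8, with a sum near that of WT, had 1 higher and 6 lower, against 4.36% and 5.21%. The stem cell, proliferation and Paneth cell markers were detected in every library, apart from Ang5. Of 14 Paneth cell markers the sum was 31379.5 in WT and 44571, 22424, 8709, 2524 and 3711. Proliferation markers, 16 of 16 tested, summed to 881 in WT and 1052, 999.8, 849, 483 and 686, and 15 stem cell markers to 797 and 734, 559, 359, 258 and 449. Olfm4 alone held 574 FPKM of the stem cell sum in WT. The median ratio of the 15 stem cell markers went another way than the sum in VEMD2, VEMD3 and VEMD4, at 0.34, 0.54, 0.34, -1.01 and -0.18. Goblet cell markers summed to 5675 and 5438, 3719, 6224, 1185 and 1994, and enteroendocrine markers to 416 and 487, 775, 415, 117 and 41.1, with Pyy at 0 in VEMD6. Markers of stroma and vessels summed to 13.6 FPKM or less in every library, with Col1a2, Col3a1, Dcn and 6 others at 0 in some, and 18 leukocyte markers to between 33.5 and 90.0. Marker genes of the upper gut, 7 of 7 tested, summed to 2355 in WT and 1049, 880.2, 1596, 5943 and 2864. Rbp2, which like Ada is also an enterocyte marker, held 1856 FPKM of this sum in WT and 5062 in VEMD6. In VEMD6 5 of the 7 were at least 2-fold higher, against 5.04% of all tested genes, and 1, Gip, was lower, against 8.15%. VEMD8 had 1 higher, against 4.36%, and 2 lower, against 5.21%. Marker genes of the lower gut summed to 501 in WT and 853, 663, 615, 468 and 304. Of the 7 lower gut markers, 6 were at least 2-fold lower than WT in VEMD6 and 6 in VEMD8, against 8.15% and 5.21% of all tested genes. Most of the lower gut sum in VEMD6 was the 1 higher gene, Cyp4f14, at 406 FPKM against 180 in WT. The part of cell type and gut region in the results below was not tested, and in bulk RNA fewer cells of a type and less RNA per cell cannot be told apart.

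Promoter sequences are shown for genes that the results turn on. Slc3a1 and Slc7a9 encode the heavy and light chain of 1 amino acid exchanger of the brush border, and Slc34a2 and Slc6a20a were at least 2-fold lower than WT in all 5 knockout libraries. Shown are the 250 bases before the start site (for Slc7a9 the first of 2 listed), in the direction of the gene, from RefSeq on GRCm38.p6, and capitals mark matches to a motif.
Slc3a1, chr17:85028097-85028346, plus strand: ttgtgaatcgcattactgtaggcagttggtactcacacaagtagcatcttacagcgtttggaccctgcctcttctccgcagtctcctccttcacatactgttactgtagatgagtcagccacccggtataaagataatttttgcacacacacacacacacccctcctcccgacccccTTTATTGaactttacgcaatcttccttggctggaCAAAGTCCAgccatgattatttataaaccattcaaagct
Slc7a9, chr7:35448842-35449091, plus strand: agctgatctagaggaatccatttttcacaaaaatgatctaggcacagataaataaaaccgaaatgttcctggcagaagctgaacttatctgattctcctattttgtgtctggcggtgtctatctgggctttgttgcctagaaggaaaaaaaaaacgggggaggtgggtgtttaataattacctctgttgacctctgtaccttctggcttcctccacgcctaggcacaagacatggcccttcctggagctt
Slc34a2, chr5:53049103-53049352, plus strand: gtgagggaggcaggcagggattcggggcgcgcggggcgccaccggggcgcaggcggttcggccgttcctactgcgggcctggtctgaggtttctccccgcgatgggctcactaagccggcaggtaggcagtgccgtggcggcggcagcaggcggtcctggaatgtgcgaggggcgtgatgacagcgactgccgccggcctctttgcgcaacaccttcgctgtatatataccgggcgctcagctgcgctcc
Slc6a20a, chr9:123678833-123679082, minus strand: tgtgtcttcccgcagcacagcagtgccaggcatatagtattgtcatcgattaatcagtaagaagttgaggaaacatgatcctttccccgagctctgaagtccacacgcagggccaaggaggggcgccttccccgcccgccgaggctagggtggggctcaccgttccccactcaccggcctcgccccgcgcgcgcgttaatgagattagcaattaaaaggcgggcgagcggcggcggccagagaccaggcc
The motifs searched on both strands, over these 250 bases and the next 50, were CAAAGTCCA of HNF4, TTTATNG of CDX2, TGATGNAAT, the element bound by ATF4, and the palindromic motif of HNF1. In the Slc3a1 sequence the first run of capitals is the CDX2 motif and the second that of HNF4, and neither overlaps the other. Among the 167 members with a promoter in the RefSeq table, Slc3a1 was the 1 gene with the HNF4 motif, which is 0.599% against 0.591% of the 8804 tested genes with a promoter. The CDX2 motif was found in 12 members, 7.19% against 8.39%, the ATF4 element in 1 member, Slc23a3, and the HNF1 motif in no member and in none of the tested genes. These shares are near those of all genes, and a match is a description of letters only.

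In crypts of the 5 knockouts Slc5a1 for glucose, Slc6a19, Slc3a1 and Slc7a9 for amino acids and Slc15a1 for peptides were lowest in VEMD3, below WT in VEMD2, and highest in VEMD6. Slc7a5 and Slc1a4, amino acid carriers known for feeding growing cells, were 2-fold or more above WT in VEMD2, VEMD3, VEMD4 and VEMD8. Other carriers of this kind did not share that pattern. Slc38a1 and Slc7a6 were within 2-fold in VEMD6 and VEMD8, and Slc1a5, Slc38a2 and Slc3a2 in every library. A small set of 4 carriers was at least 2-fold lower in every knockout library, or 1.83% against 0.626% of all tested genes. No member was at least 2-fold higher in every one, against 0.571%.

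VEMD2 had 7 of 219 members past 2-fold above WT, or 3.2% against 2.44% of all tested genes, and 16 past 2-fold below it, or 7.31% against 2.39%. In VEMD3 there were 13 higher members, or 5.94% against 6% of all genes, and 39 lower ones, or 17.8%, against 4.63%. VEMD4 had 17 higher members, or 7.76% against 7.11%, and 25 lower ones, or 11.4%, against 5.04%. In VEMD6 the balance was the other way, with 34 higher members, or 15.5% against 5.04% of all genes, and 17 lower ones, or 7.76% against 8.15%. VEMD8 had 21 higher, or 9.59% against 4.36%, and 18 lower, or 8.22% against 5.21%. The share of lower carriers was thus above that of all genes in VEMD2, VEMD3, VEMD4 and VEMD8, and the share of higher carriers in VEMD6 and VEMD8, while in VEMD3 and VEMD4 the share of higher carriers was near it. After rescaling, VEMD6 had 51 higher and 14 lower members, against 7.75% and 4.17% of all genes. The higher counts of every library include members under 1 FPKM in WT that passed the filter through the knockouts. In VEMD6 these were Slc2a6, Slc37a2, Slc28a2b, Slc19a3 and Slc25a43, in VEMD8 the same without Slc28a2b, and in VEMD2 Slc4a11 and Slc28a2b. Their higher calls follow in part from the filter, which was the same for all tested genes.

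**Figure D1:**
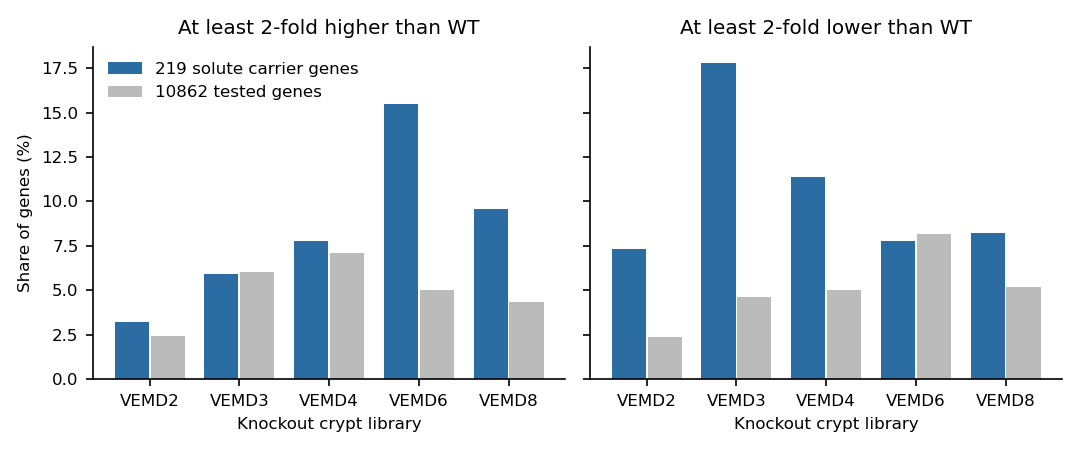
Share of genes at least 2-fold higher (left) or lower (right) than WT in each knockout crypt library, in percent, for the 219 solute carrier genes (blue) and all 10862 tested genes (grey). The carriers' share of lower genes peaks at 17.8% in VEMD3 and their share of higher genes at 15.5% in VEMD6. Each library is 1 sample, and the higher shares include genes that passed the filter through the knockouts.

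In all, 86 members (39.3%) were 2-fold from WT in at least 1 library, against 24.5% of all tested genes, and the other 133 were within 2-fold in every library. There were 14 members (6.39%) that were 2-fold higher in one library and lower in another, against 1.13%. A comparison of VEMD6 with VEMD3, chosen after the values were seen, does not use the WT library. In it 57 members (26%) were at least 2-fold higher in VEMD6, against 6.88% of all tested genes, and 24 (11%) lower, against 15.7%. These counts move with the scaling, and after rescaling they were 76 (against 11.4%) higher and 9 (against 5.04%) lower. The highest of the 6 values stood in VEMD6 for 74 members (33.8%), against 13.9% of all tested genes, and in VEMD3 for 38 (17.4%), against 28.2%. The lowest stood in VEMD6 for 59 (26.9%), against 47.3%, and in VEMD3 for 47 (21.5%), against 8.03%. After rescaling the highest stood in VEMD6 for 101 (against 26.6%) and in VEMD3 for 20 (against 16.2%), and the lowest in VEMD6 for 28 (against 28%) and in VEMD3 for 65 (against 15.1%). From VEMD6 to VEMD8, a comparison also chosen later, 20 members were at least 2-fold lower, against 2.22%, and 2, Slc7a5 and Slc13a1, were higher, against 1.45%. After rescaling there were 31 (against 3.41%) lower and 1 (against 0.838%) higher. All 5 knockouts were above WT by any amount for 29 members (13.2%), against 17%, and below it for 38 (17.4%), against 20.8%. After rescaling these were 44 (against 21.3%) and 34 (against 21.1%).

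Among the sugar carriers, Slc5a1, Slc2a2, Slc2a5 and Slc2a7 were lower in VEMD3 and VEMD4 than in the other libraries and highest in VEMD6. The median ratio of the 18 members was -0.17, -0.62, -0.47, 0.26 and -0.13, with 0, 2, 2, 3 and 4 members at least 2-fold higher and 0, 7, 5, 2 and 3 lower. Of all tested genes 2.44, 6, 7.11, 5.04 and 4.36% were higher and 2.39, 4.63, 5.04, 8.15 and 5.21% lower. Slc5a1, the sodium-glucose cotransporter SGLT1 of the brush border, was at 283 FPKM in WT and 237, 105, 155, 509.7 and 256 in the knockouts, so that VEMD3 was low and VEMD6 high. Its log2 ratio was -1.42 in VEMD3 and 0.85 in VEMD6, which is 1.08 after rescaling. Slc2a2, the basolateral exit path GLUT2 for glucose and fructose, was at 19.8 in WT and 28.4, 8.67, 13.3, 123 and 49.96 in the knockouts. Unlike Slc5a1 it was above WT in VEMD2, and its ratio ran from -1.10 in VEMD3 to 2.58 in VEMD6. The fructose carrier GLUT5, encoded by Slc2a5, was at 22.6 in WT and 17.1, 5.65, 5.71, 40.3 and 19.2 in the knockouts, with VEMD3 and VEMD4 about level and VEMD6 highest. Its neighbour on chromosome 4, Slc2a7, was at 8.13 and 7.38, 2.02, 2.75, 15 and 7.39, and so lay in the same order of high and low libraries.

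Slc5a4a and Slc5a4b, relatives of SGLT1 side by side on chromosome 10 that resemble each other and so may share reads, and Slc5a11, a carrier of inositol, were below WT in VEMD6 too. Slc5a4a was at 8.77 FPKM in WT and 5.05, 0.49, 0.09, 2.58 and 0.62 in the knockouts, and Slc5a4b at 5.56 and 3.7, 1.35, 1.25, 0.94 and 0.65. Slc5a11 was at 13.6 in WT and 7.51, 1.45, 1.48, 11 and 2.28. All 3 were below WT in every knockout library and at least 2-fold lower in VEMD3, VEMD4 and VEMD8. A different order held for Slc2a1, the carrier GLUT1 that most cells use for basal glucose uptake, at 11.3 in WT and 17.3, 24.6, 33.4, 16.6 and 24 in the knockouts. It was above WT in every one and highest in VEMD4, with ratios of 0.57, 1.05, 1.48, 0.51 and 1.02, of which that of VEMD3 was 0.93 after rescaling. Slc37a2, a sugar phosphate carrier of the endoplasmic reticulum, was at 0.54 in WT, at 0.17 or less in VEMD2, VEMD3 and VEMD4, and at 28.9 in VEMD6 and 6.72 in VEMD8. Slc2a6, the carrier GLUT6, was at 0.48 in WT and 1.36, 2.43, 3.61, 9.09 and 6.0 in the knockouts. Both genes were under 1 FPKM in WT and entered through the knockouts. Slc37a4, which carries glucose 6-phosphate in the last steps of glucose release, was below WT in every library, at 25 and 21.4, 15.2, 13.3, 18.5 and 16.5, without reaching 2-fold. In all, 10 of 18 members (55.6%) were past 2-fold in some library, against 24.5% of all tested genes, and the 8 sugar members within 2-fold in every library had ratios between -0.91 and 0.81.

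**Figure D2:**
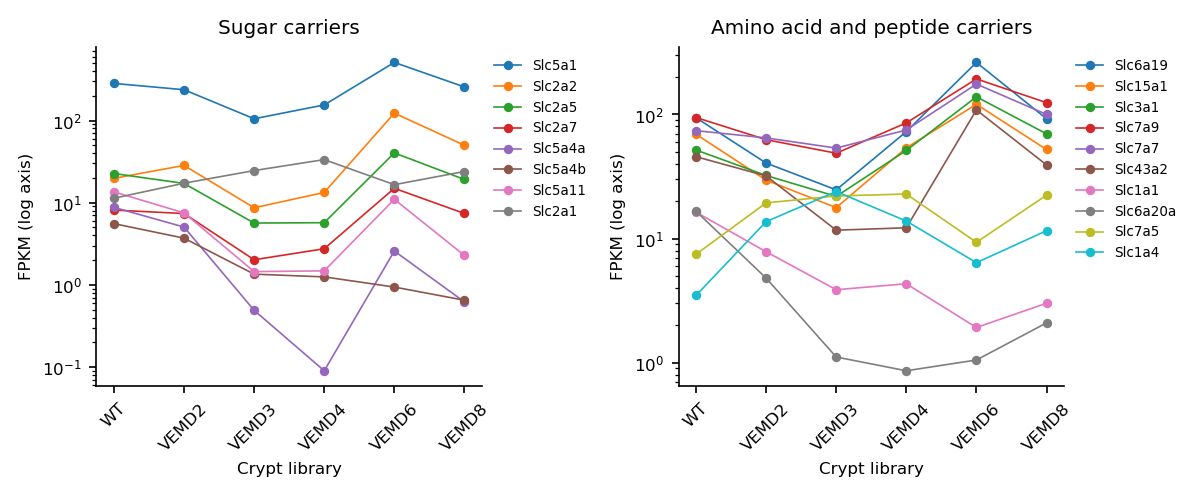
FPKM on a log axis in each of the 6 crypt libraries for 8 sugar carriers (left) and 10 amino acid and peptide carriers (right). Each point is 1 library, and lines join the values of a gene without implying an order. Slc5a1, Slc2a2, Slc6a19, Slc3a1 and Slc43a2 dip in VEMD3 and peak in VEMD6, while Slc1a1, Slc6a20a and Slc5a4b stay below WT in every knockout and Slc1a4 and Slc7a5 stay above it.

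Carriers of amino acids and peptides are described in 3 sets, drawn up after their values were seen. The 34 members had a median ratio of -0.11, -0.16, 0.00, 0.14 and 0.10, and 4, 4, 4, 8 and 2 members were at least 2-fold higher and 3, 9, 5, 3 and 4 lower. Shares of all tested genes were 2.44, 6, 7.11, 5.04 and 4.36% higher and 2.39, 4.63, 5.04, 8.15 and 5.21% lower. The first set holds carriers known from the absorbing cell. Slc6a19, the sodium-coupled carrier B0AT1 of neutral amino acids on the brush border, was at 94.1 FPKM in WT and 40.6, 24.7, 72.7, 263 and 92.3 in the knockouts, with ratios of -1.19, -1.89, -0.37, 1.47 and -0.03. Slc15a1, the proton-coupled peptide carrier PEPT1, was at 69.3 in WT and 29.6, 17.7, 53.9, 121 and 52.2. Both genes were at least 2-fold lower in VEMD2 and VEMD3, and Slc6a19 was 2-fold higher in VEMD6, where Slc15a1 had a ratio of 0.79, or 1.03 after rescaling. Slc3a1 and Slc7a9, whose promoters are printed above, encode the heavy chain rBAT and the light chain of the exchanger for cystine and basic amino acids. Slc3a1 was at 51.7 in WT and 32.2, 21.9, 51.3, 139 and 69.8 in the knockouts, and Slc7a9 at 94.5 and 62.6, 48.7, 85.6, 193 and 124. Each chain was lowest in VEMD3, near WT in VEMD4 and highest in VEMD6, with ratios of 1.41 and 1.03 there.

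Slc7a7, the light chain that passes basic amino acids out on the basolateral face, was at 74 FPKM in WT and 64.8, 53.6, 75, 176 and 100.1 in the knockouts, and its heavy chain Slc3a2 at 95.8 and 78.6, 65.6, 87.7, 130.2 and 87. Slc3a2, which also serves light chains of growing cells, was within 2-fold of WT in every library. The light chain Slc7a8, another basolateral exchanger, was at 56.5 in WT and 46.3, 19.8, 11.6, 56.8 and 27.5, lowest in VEMD4 with a ratio of -2.19 and level with WT in VEMD6, and its ratio of -1.02 in VEMD8 was -0.95 after rescaling. Slc43a2, a carrier of large neutral amino acids, was at 45.7 in WT and 32, 11.7, 12.2, 109 and 39.2, low in VEMD3 and VEMD4 and high in VEMD6. Slc16a10, which carries aromatic amino acids, and Slc7a15, a light chain of the same family as Slc7a9, each had a ratio of 1.07 in VEMD6. Slc6a8, the creatine carrier and on average the amino acid or derivative carrier with the highest level, was at 117 in WT and 67.9, 64.4, 123, 334 and 172 in the knockouts, again lowest in VEMD3 and highest in VEMD6.

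The second set holds carriers known for supplying growing cells. Slc1a4, the carrier ASCT1 of alanine, serine and cysteine, was at 3.48 FPKM in WT and 13.7, 23.9, 13.8, 6.39 and 11.6 in the knockouts, with ratios of 1.71, 2.48, 1.73, 0.72 and 1.49. Slc7a5, the leucine-glutamine exchanger LAT1, was at 7.47 in WT and 19.4, 22, 22.9, 9.33 and 22.4. Both were above WT in every knockout and at least 2-fold higher in VEMD2, VEMD3, VEMD4 and VEMD8, with VEMD6 the nearest to WT. The glutamine carriers Slc38a1 and Slc1a5 differed in size. Slc38a1 was at 10.4 and 22.8, 24, 22.2, 10.8 and 16.6, with a ratio of 1.07 in VEMD2 that was 0.98 after rescaling. Slc1a5 was at 37.8 and 62.4, 55.9, 49.8, 25.9 and 40.4, within 2-fold everywhere. Slc7a6, a light chain for basic amino acids and glutamine, was at 3.18 and 7.86, 8.61, 6.99, 3.24 and 5.77, and its ratio of 1.08 in VEMD2 was just under 2-fold after rescaling. Slc43a1, a leucine carrier under 1 FPKM in WT, had a ratio of 1.40 in VEMD4. Slc6a6, which takes up taurine, and Slc38a2, which answers amino acid shortage, were above WT in every library, with ratios of at most 0.81 and 0.90.

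The third set was below WT in every knockout. Slc6a20a, a carrier of proline, was at 16.6 FPKM in WT and 4.8, 1.11, 0.86, 1.05 and 2.09 in the knockouts, at least 2-fold lower in all 5. Slc1a1, the carrier EAAT3 of glutamate and aspartate, was at 16.3 and 7.83, 3.87, 4.32, 1.92 and 3.01, and its ratio of -0.97 in VEMD2 was -1.06 after rescaling. Slc36a1, a proton-coupled carrier of small amino acids, was at 18.1 and 12.4, 6.92, 6.37, 5.68 and 4.14, lowest in VEMD8. All 3 were below WT in VEMD6, where Slc6a19 and Slc15a1 were above it. Of the whole group, 18 of 34 members (52.9%) were past 2-fold in some library, against 24.5% of all tested genes. The 16 others were within 2-fold of WT in every library. Among them were Slc7a1, which takes up arginine, Slc38a10 and Slc15a4, a peptide and histidine carrier of lysosomes.

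Ion carriers were the largest group, and 17 of 46 members (37%) were past 2-fold in some library, against 24.5% of all tested genes. Their median ratio was -0.02, -0.05, -0.01, 0.03 and 0.07, and 2, 2, 2, 7 and 3 members were 2-fold higher and 3, 10, 7, 2 and 2 lower. Of all tested genes 2.44, 6, 7.11, 5.04 and 4.36% were higher and 2.39, 4.63, 5.04, 8.15 and 5.21% lower. Absorption of sodium chloride pairs sodium-proton exchangers of the Slc9 family with chloride-bicarbonate exchangers of the Slc26 family on the brush border. Slc9a3, the main exchanger NHE3, was at 23.1 FPKM in WT and 18, 10.4, 32.2, 73.5 and 65.5 in the knockouts, lowest in VEMD3 and at ratios of 1.63 and 1.47 in VEMD6 and VEMD8. Slc9a2, or NHE2, was at 48.7 and 20.4, 10.9, 23.4, 67.5 and 26.1, so that it was 2-fold lower in the first 3 of these and, unlike NHE3, below WT in VEMD8. Slc26a6 was at 57.8 and 37.5, 27.3, 43.5, 133 and 98.8, and Slc26a3 at 42.9 and 30.1, 18.2, 18.1, 45 and 43.4. Both Slc26 genes were lower in VEMD3, at ratios of -1.05 and -1.19, and Slc26a6 alone was 2-fold higher in VEMD6. The basal exchanger Slc4a2, which helps to keep the pH of most cells, was within 2-fold everywhere. Slc12a8 had a ratio of -1.01 in VEMD6, which was -0.78 after rescaling, and the potassium-chloride cotransporter Slc12a7 was within 2-fold throughout.

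Carriers of bicarbonate parted in direction. Slc4a4, the basolateral sodium-bicarbonate cotransporter, was at 14.2 FPKM in WT and 12.1, 5.07, 3.25, 21.1 and 10.4 in the knockouts, low in VEMD3 and VEMD4. Slc4a7, another sodium-bicarbonate cotransporter, was at 4.94 and 9.3, 10.1, 10.6, 21.5 and 20.1, above WT in every library and at ratios of 1.92 and 1.83 in VEMD6 and VEMD8. Slc4a11, a relative of these, was at 0.05 FPKM in WT against 2.86, 13, 8.86, 0.22 and 0.04. It was over 1 FPKM in VEMD2, VEMD3 and VEMD4 alone, and it entered the members through the knockouts.

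Slc13a1, the sodium-sulfate cotransporter of the brush border, was at 6.09 FPKM in WT and 2.37, 2.34, 3.2, 36.5 and 76.2 in the knockouts, 2-fold lower in VEMD2 and VEMD3 and at ratios of 2.40 and 3.44 in VEMD6 and VEMD8. Slc34a2, the sodium-phosphate cotransporter of the brush border, was at 50.1 in WT and 16.5, 9.57, 21, 10.1 and 0.58. It was at least 2-fold lower in all 5, and its ratio of -5.02 in VEMD8 was the lowest of any member in any library. The phosphate carriers Slc20a1 and Slc20a2, which most cells use, were above WT in VEMD2, VEMD3 and VEMD4, with ratios between 0.69 and 0.91, and did not reach 2-fold. Slc26a2, a sulfate exchanger, was above WT in every library, at ratios up to 0.93.

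Zinc enters cells through carriers of the Slc39 family and leaves the cytosol through those of the Slc30 family. Slc39a4, the zinc importer ZIP4 of the brush border, was at 70.3 FPKM in WT and 77.9, 88.7, 72.8, 99.5 and 56.1 in the knockouts, within 2-fold everywhere. Slc39a5, the basolateral importer ZIP5, was at 97.5 and 49.7, 24, 16.1, 61 and 41.3, below WT in every library and lowest in VEMD4 at a ratio of -2.53. Slc39a14, or ZIP14, was at 21.3 and 25.8, 26.4, 34.7, 55.7 and 43.2, above WT in every library with a ratio of 1.35 in VEMD6. Slc39a10, or ZIP10, was at 1.96 and 7.43, 9.46, 5.81, 2.2 and 3.99, at least 2-fold higher in VEMD2, VEMD3 and VEMD4. Of 12 Slc39 members, 2 were 2-fold higher in VEMD6, Slc39a14 and Slc39a9, against 5.04% of all tested genes. In each of VEMD3, VEMD4 and VEMD8 1 was lower, Slc39a5, against 4.63, 5.04 and 5.21%. Of 7 Slc30 members only Slc30a2 was 2-fold from WT in some library in the values as deposited, against 24.5%. Counts this small cannot be set apart from the shares of all genes. Slc30a2, which loads zinc into secretory vesicles and is known from Paneth cells, was at 21.9 in WT and 16, 7.12, 7.14, 43.9 and 24.3, lowest in VEMD3 and VEMD4. It was highest in VEMD6, where the Paneth cell markers summed to 2524 FPKM against 31379.5 in WT. Slc31a1, the copper importer, and Slc30a1, the exporter of zinc at the cell surface, were within 2-fold in every library (Slc30a1 had a ratio of 1.03 in VEMD6 after rescaling), and the magnesium carrier Slc41a2 had a ratio of 1.08 in VEMD6.

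**Figure D3:**
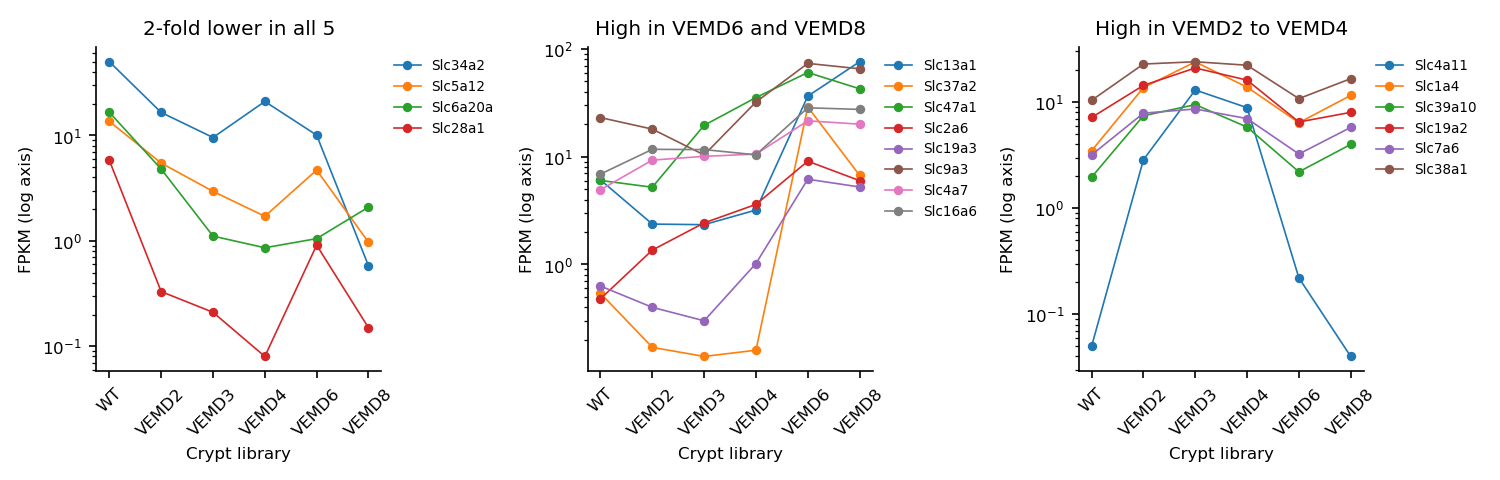
FPKM on a log axis in the 6 crypt libraries for the 4 carriers at least 2-fold lower than WT in all 5 knockouts (left), 8 carriers with high values in VEMD6 and VEMD8 (middle) and 6 with high values in VEMD2, VEMD3 and VEMD4 (right). Each point is 1 library, and lines join the values of a gene. The genes of the middle and right panels were picked after their values were seen. Slc34a2 goes from 50.1 in WT to 0.58 in VEMD8, and Slc4a11 is over 1 FPKM in VEMD2, VEMD3 and VEMD4 alone.

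The 4 carriers at least 2-fold lower in all 5 knockouts were Slc34a2, Slc6a20a, Slc28a1 and Slc5a12, or 1.83% of members against 0.626% of all tested genes, and 0 were higher in all 5, against 0.571%. On GRCm38, Slc34a2 lies on chromosome 5 from 53049353 to 53071664, Slc6a20a on chromosome 9 from 123636907 to 123678832, Slc28a1 on chromosome 7 from 81113269 to 81170416 and Slc5a12 on chromosome 2 from 110597299 to 110649345, so that no pair shares a chromosome. Slc5a12, a sodium-coupled carrier of lactate, was at 13.6 FPKM in WT and 5.47, 2.95, 1.71, 4.7 and 0.97 in the knockouts. Slc28a1, the concentrative carrier CNT1 of pyrimidine nucleosides, was at 5.79 and 0.33, 0.21, 0.08, 0.91 and 0.15, under 1 FPKM in every knockout. Without VEMD2 the count was 9 lower and 3 higher, against 1.22% and 1.24% of all tested genes, with Slc1a1, Slc23a1, Slc36a1, Slc5a4a and Slc5a4b added to the lower genes and Slc2a6, Slc35f6 and Slc47a1 as the higher ones, and without VEMD6 there were 2 higher, Slc1a4 and Slc7a5, against 0.884%. Without VEMD8 there was 1 higher, Slc28a2b, against 0.626%, and without VEMD4 there were 6 lower, against 0.69%, with Slc17a4 and Slc5a8 added. Slc2a6 and Slc28a2b entered the members through the knockouts, so their place among the higher genes follows in part from the filter. With a pseudocount of 5 FPKM 2 lower genes were left, Slc34a2 and Slc6a20a, and after rescaling there were 5, with Slc1a1 added.

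Among nucleoside and nucleobase carriers the highest values of Slc28a2 and Slc23a4 were in VEMD4. The 10 members had a median ratio of -0.11, 0.44, 0.56, -0.16 and -0.29, and, with Slc28a2b counted, 1, 1, 2, 1 and 0 were 2-fold higher and 3, 1, 1, 2 and 1 lower. Shares of all tested genes were 2.44, 6, 7.11, 5.04 and 4.36% higher and 2.39, 4.63, 5.04, 8.15 and 5.21% lower. Past 2-fold in some library were 5 of 10 members (50%), against 24.5% of all tested genes. Slc28a2, the concentrative carrier CNT2 of purine nucleosides, was at 19.9 FPKM in WT and 7.88, 35.6, 148, 40.3 and 18.6 in the knockouts, lowest in VEMD2 and highest in VEMD4 at a ratio of 2.83. Slc28a2b, its near copy next to it on chromosome 2, entered the members through the knockouts and was listed at 0 in WT and VEMD8. It was at 1.11, 5.39, 27.1 and 6.07 in the other libraries. Both were highest in VEMD4, and single values of the pair are uncertain because reads may be split between them. Slc23a4, which carries nucleobases in rodents, was at 30.8 and 12.8, 21.1, 51.3, 33.7 and 16.8, with VEMD2 low and VEMD4 high. Slc29a1, the equilibrative carrier ENT1, was at 11.3 and 20.1, 22.7, 18.9, 6.47 and 10.6, within 2-fold but above WT in VEMD2, VEMD3 and VEMD4. Slc28a3, or CNT3, was below WT in every library, and its ratio of -1.01 in VEMD6 was -0.78 after rescaling, while those of -0.91 in VEMD3 and -0.99 in VEMD4 were -1.03 and -1.02.

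Vitamin carriers differed gene by gene, with a median ratio of -0.13, -0.05, 0.13, 0.72 and 0.37 over 10 members. Slc46a1, the proton-coupled folate carrier of the brush border, was at 22 FPKM in WT and 5.19, 7.94, 20.8, 67.2 and 24.9 in the knockouts, with ratios of -1.89, -1.36, -0.08, 1.57 and 0.17. Slc19a1, the reduced folate carrier of most cells, was above WT in every library at ratios between 0.47 and 0.70. The thiamine carriers went apart: Slc19a2 was at 7.16 and 14.4, 21, 16.1, 6.49 and 8.0, high in VEMD2, VEMD3 and VEMD4, and Slc19a3 at 0.63 and 0.4, 0.3, 1.02, 6.18 and 5.24, high in VEMD6 and VEMD8. Slc19a3 entered the members through the knockouts. Slc44a4, which carries thiamine pyrophosphate, was at 54.1 and 52.3, 58.4, 119.6, 95.2 and 88.4, highest in VEMD4. Slc52a3, the apical riboflavin carrier, was above WT in every library, and its ratio of 1.02 in VEMD4 was just under 2-fold after rescaling. Of the vitamin C carriers, Slc23a1 was at 8.37 and 6.6, 2.22, 2.76, 2.23 and 0.48, lowest in VEMD8, while Slc23a2 was at 8.98 and 11.3, 10.6, 8.68, 18.2 and 18.9, with VEMD6 and VEMD8 highest. Slc5a6, the carrier of biotin and pantothenate, was below WT in every library without reaching 2-fold.

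**Figure D4:**
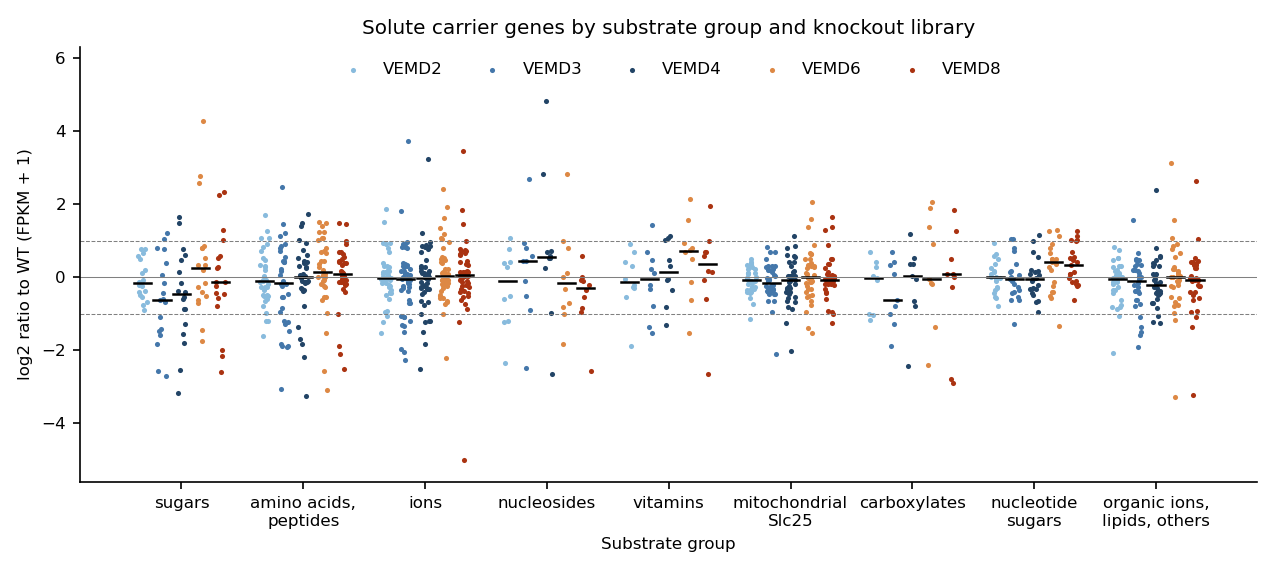
Log2 ratio to WT, after 1 FPKM was added to both values, of the members, apart from the 3 genes that are no transporter, by substrate group and knockout library. Points are genes, black bars are medians, and dashed lines mark 2-fold. Slc28a2b, listed at 0 in WT, is drawn with the added 1 FPKM. The medians of the groups lie between -0.64 for carboxylates in VEMD3 and 0.72 for vitamins in VEMD6.

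Mitochondrial carriers held the 2 members with the highest mean level, Slc25a5 and Slc25a3, and had a median ratio of -0.08, -0.17, -0.08, 0.01 and -0.08. In this group 7 of 36 members (19.4%) were past 2-fold in some library, against 24.5% of all tested genes. Slc25a5, the exchanger ANT2 of ADP and ATP, was at 1214 FPKM in WT and 923, 880.3, 875, 1485 and 1265 in the knockouts, and Slc25a3, the phosphate carrier, at 763 and 568, 647, 646, 943 and 729. Both were under WT in each of VEMD2, VEMD3 and VEMD4 and over it in VEMD6, all within 2-fold. Slc25a4, the paralog ANT1, was at 12.8 and 17.2, 23.4, 29, 34.5 and 35, above WT in every library and at least 2-fold higher in VEMD4, VEMD6 and VEMD8. In every library Slc25a5 was the higher of the pair by far. Slc25a15, the ornithine carrier of the urea cycle, was at 77.2 and 60.8, 39.6, 31.9, 96 and 69.5, with a ratio of -1.25 in VEMD4. Slc25a45 was at 28.9 and 12.4, 5.89, 6.28, 54.3 and 26.9, lowest in VEMD3 and VEMD4 and highest in VEMD6, the order seen for Slc43a2. Slc25a34 and Slc25a43 were high in VEMD6 and VEMD8, at ratios of 2.05 and 1.64 and of 1.58 and 1.28. Slc25a43 was at 0.47 FPKM in WT and 0.58, 0.83, 1.14, 3.4 and 2.57 in the knockouts, and entered the members through the knockouts. Slc25a42, which brings coenzyme A into mitochondria, was below WT in every library and lowest in VEMD6 at a ratio of -1.40, and its ratio of -1.02 in VEMD8 was -0.96 after rescaling. Slc25a35 was at 6.43 and 8.47, 5.84, 4.63, 1.58 and 2.1, 2-fold lower in VEMD6 and VEMD8. Slc25a22, a glutamate carrier, was at 52.2 and 30.8, 39, 94.7, 46.7 and 26.4, highest in VEMD4 and lowest in VEMD8 and within 2-fold of WT. The carnitine-acylcarnitine carrier Slc25a20, the citrate carrier Slc25a1, the mitoferrins Slc25a37 and Slc25a28 and the aspartate-glutamate carrier Slc25a13 were within 2-fold throughout.

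Among carriers of carboxylates, Slc16a1, the lactate and butyrate carrier MCT1, was at 56.2 FPKM in WT and 57.2, 59.4, 54.5, 49.5 and 59.7 in the knockouts, close to WT in each. Slc16a3, or MCT4, which exports lactate from glycolytic cells, was at 10.4 and 4.65, 5.59, 24.6, 46.5 and 26.2, 2-fold lower in VEMD2 and 2-fold higher in VEMD4, VEMD6 and VEMD8. Slc16a6, a carrier of ketone bodies, was at 6.9 and 11.7, 11.7, 10.4, 28.4 and 27.5, above WT in every library. Slc13a2, the citrate carrier of the brush border, was at 20.5 and 20.2, 9.71, 12.6, 55 and 22, lowest in VEMD3 and highest in VEMD6. Slc5a8, a sodium-coupled carrier of short-chain fatty acids best known from the colon, was at 6.42 and 2.59, 2.07, 8.59, 0.4 and 0.07, above WT in VEMD4 only and lowest in VEMD8.

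Carriers of the Slc35 family had a median ratio of 0.01, -0.04, -0.06, 0.42 and 0.33 over 21 members. In the family, 7 of 21 members (33.3%) were past 2-fold in some library, against 24.5% of all tested genes. Slc35b1, which brings ATP into the endoplasmic reticulum, was at 177 FPKM in WT and 147, 131, 130.3, 250.5 and 253 in the knockouts, with VEMD6 and VEMD8 above WT and the others below it. Slc35c1, the carrier of GDP-fucose into the Golgi apparatus, was above WT in every library, at 66.1 and 99.2, 115, 106, 105 and 134. Slc35d1 and Slc35d2, carriers of UDP-sugars, were 2-fold higher in VEMD6 and VEMD8, at ratios of 1.28 and 1.11 and of 1.11 and 1.01. Slc35f6 was above WT in every library, at ratios of 1.15, 1.28 and 1.25 in VEMD4, VEMD6 and VEMD8, and its ratio of 1.04 in VEMD3 was 0.91 after rescaling. Slc35f2 was at 41.4 and 23.6, 16.3, 20.7, 56.4 and 43.6, lower in VEMD3. The carriers of CMP-sialic acid, Slc35a1, and of UDP-galactose, Slc35a2, were within 2-fold throughout.

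In the remaining group, 10 of 32 members (31.2%) were past 2-fold in some library, against 24.5% of all tested genes. Slc27a4, the fatty acid carrier FATP4, was at 142 FPKM in WT and 80.5, 47.1, 78.5, 423 and 170.1 in the knockouts, lowest in VEMD3 and highest in VEMD6. Slc27a2, or FATP2, was at 35.8 and 19.2, 20.9, 16.6, 68 and 74.2, with VEMD4 lowest and VEMD8 highest. Slc22a5, the carnitine carrier OCTN2, was at 24.4 and 17.8, 18.6, 30.3, 51.9 and 29.3, 2-fold higher in VEMD6 alone. Slc47a1, the exporter MATE1 of organic cations, was at 6.02 and 5.21, 19.6, 35.4, 60.5 and 42.7, below WT in VEMD2 and at least 2-fold higher in the 4 others. Slc17a4, an organic anion carrier, was at 24.6 and 5.03, 5.79, 18.5, 1.63 and 1.71, 2-fold lower in all but VEMD4. Slc6a4, the serotonin carrier, was at 22.4 and 17.2, 7.18, 8.87, 19.3 and 11.3, below WT in every library and 2-fold lower in VEMD3 and VEMD4. Slc22a4, next to Slc22a5 and Slc22a21 on chromosome 11 and similar to both, was at 6.1 and 3.17, 1.75, 2.04, 4.87 and 1.77, 2-fold lower in VEMD3, VEMD4 and VEMD8, of which Slc22a5 was above WT in VEMD4 and VEMD8. Slc44a1, the choline carrier, and Slc33a1, the acetyl-CoA carrier, were within 2-fold of WT in every library. Slc14a1, a urea carrier, was at 2.02 and 4.37, 3.17, 1.22, 0.81 and 0.43, highest in VEMD2.

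Of the 3 genes that only bear a carrier's name, Slc9a3r1, the scaffold NHERF1 that ties NHE3 to the brush border, was at 322 FPKM in WT and 199, 193, 340.0, 712 and 371 in the knockouts, again lowest in VEMD3 and highest in VEMD6. Slc7a6os and Slc4a1ap were within 2-fold throughout. Partners and pumps of carriers were taken from a list of 14 genes, of which 12 were tested. In it 0, 1, 1, 3 and 1 genes were 2-fold higher than WT and 2, 3, 1, 2 and 1 lower, against 2.44, 6, 7.11, 5.04 and 4.36% of all tested genes higher and 2.39, 4.63, 5.04, 8.15 and 5.21% lower. Pdzk1, a scaffold of brush border carriers, was at 44.6 FPKM in WT and 17.3, 10.4, 18.4, 86.2 and 25.1 in the knockouts, with ratios of -1.32, -2.00, -1.24, 0.94 and -0.80. Atp1b1, a subunit of the sodium pump, had a ratio of 0.94 in VEMD6, where the median of all tested genes was -0.23, and was within 2-fold of WT in every library as deposited. Bsg, the chaperone of MCT1 and MCT4, was below WT in every library and within 2-fold.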

How the data were processed

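RNA of 8 samples was sequenced, 6 of crypts and 2 of stem cells, and the 6 crypt libraries were used. The gene values of crypts are FPKM deposited by the authors, with the unit per the file headers, given to 2 decimals. The submitters' processing notes list HISAT2, featureCounts and edgeR and the builds GRCm38 and mm10, without versions or roles. Scaling by gene length makes genes comparable within a library, and low values carry more rounding and counting error, which cannot be given without counts.

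Gene identifiers were matched to RefSeq on GRCm38.p6 for symbols and positions, which named 16916 of 16958 genes with values. A gene entered the comparisons, and is called tested, at a mean of at least 1 FPKM over the 6 libraries, which held for 10862 genes. Log2 ratios used a pseudocount of 1 FPKM, and 2-fold was the threshold. Called means past that fold, since 1 library per group allows no test. The members, substrate groups, motifs and gene lists were chosen with earlier results of these data known. Named genes were the members 2-fold from WT one way in all 5 knockouts, and in each group the 4 with the highest mean, the 5 highest and 5 lowest by mean ratio among members 2-fold from WT in some library, the 4 with the widest span, and known carriers of the gut. This gave 137 genes, not all of which are printed. Slc10a4l, Slc15a4, Slc18a2, Slc22a21, Slc25a28, Slc33a1, Slc38a10, Slc39a9, Slc41a2 and Slc44a1 were added to these with their values known. Alternatives were pseudocounts of 0.1 and 5 FPKM, rescaling to the median gene, a mean of at least 5 FPKM, no filter, and leaving out 1 knockout library. The call rule was run on simulated data with WT values of at least 5 FPKM, small noise and the same fold in all 5 knockouts. That setting leaves out genes of low level, so it says nothing of their calls. Python 3.11.15, pandas 2.3.3 and matplotlib 3.10.9 were used. Some members are not reported here. A second deposited table, of repeat elements, was not used.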

Additional observations from a re-analysis of the deposited data

How the results depend on the processing

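No paired analysis was possible because no group has a second library. A pseudocount of 0.1 FPKM gave 14 carriers 2-fold higher in VEMD2, 20 in VEMD3 and 1, Slc2a6, in all 5 knockouts. Slc2a6 entered the members through the knockouts. A pseudocount of 5 FPKM gave 1 higher and 9 lower in VEMD2, 7 higher and 24 lower in VEMD3, 8 higher in VEMD4, 6 lower in VEMD6, 12 higher in VEMD8 and 2 lower in all 5. After rescaling to the median gene 4 were higher in VEMD2. With a mean of at least 5 FPKM 6 were lower in VEMD6, 7 in VEMD8 and 1, Slc34a2, in all 5. With 1 knockout library left out, the carriers higher in all others numbered 0 to 3 and those lower in all others 4 to 9. The remaining counts of members against WT in 1 library or in all 5, among them all those with no filter, stayed within 1.5 times. Between knockouts, rescaling took the carriers lower in VEMD6 than in VEMD3 from 24 to 9, those lower in VEMD8 than in VEMD6 from 20 to 31 and those higher from 2 to 1, and it took those above WT by any amount in all 5 from 29 to 44. No group median passed 2-fold under any alternative. Of the ratios of named genes, a pseudocount of 5 FPKM took 85 under 2-fold and rescaling took 12, and no ratio past 2-fold changed its sign. In the other direction, a pseudocount of 0.1 FPKM took 34 past 2-fold and rescaling took 24. Without counts, the depth behind low values, such as those of Slc28a1 and Slc4a11, is unknown.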

Other observations

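Members that lie next to each other, with no other protein-coding gene of the RefSeq annotation between them and within 200 kb, formed 11 pairs, and the pairs differed in how far their values went together. The ratio to WT of Slc2a5 minus that of Slc2a7, 4.7 kb away on chromosome 4, was -0.53 in VEMD4 and nearer 0 in the other libraries. For Slc16a11 minus Slc16a13, 0.4 kb away on chromosome 11, it lay between -0.28 and 0.31. Slc13a2 and Slc46a1, 43.4 kb apart on chromosome 11, carry citrate and folate, and the ratio of the first minus that of the second was 1.87 in VEMD2 and between -0.59 and 0.36 in the others. Slc12a7, 32.3 kb from Slc6a19 on chromosome 13, was within 2-fold of WT in every library, and Slc6a19 was not. For Slc25a43 minus Slc25a5, 18.3 kb away on chromosome X, the difference was 1.29 in VEMD6, with Slc25a43 at 0.47 FPKM in WT.

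Membrane transporters outside the Slc families, from a list of 20 genes of which 16 were tested, were 2-fold higher than WT in 2, 2, 3, 5 and 1 genes and lower in 3, 6, 5, 2 and 3, against 2.44, 6, 7.11, 5.04 and 4.36% of all tested genes higher and 2.39, 4.63, 5.04, 8.15 and 5.21% lower. Abcc2, an exporter of conjugated drugs and bilirubin on the brush border, was at 12.1 FPKM in WT and 22.6, 16.6, 22.9, 55.2 and 31.2 in the knockouts, above WT in every library. Slco2b1, an organic anion carrier, was at 18.9 and 9.26, 2.33, 0.69, 6.76 and 7.85, below WT in every library. Abcb1b, a drug exporter, was at 0.01 in WT and 1.32, 5.0, 2.99, 0.05 and 0.28, highest in VEMD3. The water channel Aqp3 was at 6.59 and 1.91, 1.26, 1.35, 8.48 and 7.18, with VEMD6 and VEMD8 near WT and the others 2-fold lower.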
